A study of Mus musculus with 4 samples.

Results

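The 10 genes examined act in the sensing of DNA in the cytosol and in its clearance. They were *Cgas*, *Aim2*, *Zbp1* and *Ifi204* as sensors, *Sting1*, *Tbk1* and *Irf3* as the signalling arm, and *Trex1*, *Samhd1* and *Rnaseh2a* as enzymes that keep nucleic acids low. They were chosen by name from 40213 symbols in the count files, of which 19815 had a count in at least 1 library, and the counts of all transcripts of a symbol were summed. All 10 were found, and all 10 were kept by the low-count filter, which left 12393 genes to test.

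The libraries came from CD24+ emergency progenitors (EPs), CD11c+CD117+ cells that expand under Flt3 ligand and give rise to cDC1s, sorted from the spleen. Mice of 7 to 10 weeks received 10 μg of Flt3L-Ig i.p. on days 0 and 3, in both groups, and cells were taken on day 9. The groups were WT mice (2 libraries) and TopBP1cKO mice (2 libraries). In the latter CD11c-cre deletes a floxed *Topbp1*, so deletion is limited to cells that have switched on the CD11c promoter. In its tumour experiment the paper describes the WT controls as floxed littermates (TopBP1fl/fl), and for the RNA-seq it says only WT. TopBP1 is a scaffold protein for the start of DNA replication and for the response to DNA damage. The sources used here do not say whether each library was 1 mouse or a pool, so P values measure the spread between these libraries only.

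In this pathway cGAS binds double-stranded DNA and makes cyclic GMP-AMP, which STING, a membrane adaptor of the endoplasmic reticulum, binds in turn. STING recruits the kinase TBK1, which phosphorylates IRF3, and IRF3 then switches on type I interferon genes. AIM2 and ZBP1 lead instead to an inflammasome and to necroptosis, whereas TREX1, SAMHD1 and RNase H2 degrade DNA, limit deoxynucleotides and remove RNA from DNA. Many of these genes are themselves induced by interferon, and in dendritic cells the cGAS–STING route is known for its part in the response to tumour DNA.

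The data as a whole set limits on what follows. Library totals ran from 14561583 to 15193831 counts. *Topbp1* itself was counted 1102 and 1143 times in WT and 773 and 1279 times in TopBP1cKO replicates 1 and 2. The log2 fold change was −0.20 (SE 0.21, FDR 0.774), with TopBP1cKO replicate 2 above both WT libraries. A count summed over the whole gene does not show whether its floxed part was lost, and that was not examined. The group is called by its label throughout. All 12 EP and cDC1 markers, among them *Itgax*, *Kit*, *Flt3* and *Cd24a*, were kept by that filter. The 20 cell cycle genes summed to 693 and 688 CPM (counts scaled to a common library size) in WT and to 923 and 2424 CPM in TopBP1cKO replicates 1 and 2, and the 15 neutrophil markers to 1551 and 1289 CPM against 3371 and 2628 CPM. Both libraries labelled TopBP1cKO were above both WT libraries for 20 of the 20 cell cycle genes and 13 of the 15 neutrophil markers, beside 22.8% of all genes. At FDR < 0.05, 7 of the neutrophil markers and 0 of the cell cycle genes were higher, where 0.105% of all genes differed in either direction. At an unadjusted P value below 0.05, 20 of the cell cycle genes were higher, beside 6.95% of all genes. No gene of either list was at 0. The part of either in the results below was not tested. In bulk RNA, fewer cells of a type and less RNA per cell cannot be told apart.

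The DNA of 3 of the genes, just before their start sites, shows how unlike their promoters are. *Aim2* and *Samhd1* are shown because both were lower in both libraries labelled TopBP1cKO, and *Cgas* because it was higher in both. The 250 bases before the RefSeq start are given 5′ to 3′ on the strand of the gene, with every CG in capitals. On GRCm38.p6 they lie at chr1:173420354-173420603 (plus strand), chr2:157135097-157135346 (minus strand) and chr9:78443238-78443487 (minus strand).
Aim2: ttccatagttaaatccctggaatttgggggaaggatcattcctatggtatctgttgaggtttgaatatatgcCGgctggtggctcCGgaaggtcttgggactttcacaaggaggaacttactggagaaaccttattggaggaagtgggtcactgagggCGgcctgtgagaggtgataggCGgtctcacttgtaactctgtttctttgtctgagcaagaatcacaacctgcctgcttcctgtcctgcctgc
Samhd1: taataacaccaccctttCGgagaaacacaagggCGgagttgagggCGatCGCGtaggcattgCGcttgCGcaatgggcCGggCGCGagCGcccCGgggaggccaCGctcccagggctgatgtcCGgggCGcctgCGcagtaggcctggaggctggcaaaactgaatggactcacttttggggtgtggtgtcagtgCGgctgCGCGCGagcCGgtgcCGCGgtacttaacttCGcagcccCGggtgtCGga
Cgas: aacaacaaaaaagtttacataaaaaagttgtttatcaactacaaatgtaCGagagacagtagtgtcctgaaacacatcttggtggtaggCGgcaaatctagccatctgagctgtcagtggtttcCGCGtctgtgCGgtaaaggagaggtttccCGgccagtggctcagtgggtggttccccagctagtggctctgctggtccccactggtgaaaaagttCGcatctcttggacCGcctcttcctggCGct

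The *Samhd1* promoter held 26 CG pairs, *Aim2* 4 and *Cgas* 9. The median of 32851 RefSeq promoter windows was 6, with quartiles of 2 and 16. *Tbk1* had 31, *Rnaseh2a* 17 and *Irf3* 16, whereas the windows of the 2 *Trex1* starts had 7 and 4. The windows of 7 of the 10 genes were at hand, without *Sting1*, *Zbp1* and *Ifi204*. Both strands were searched for the core of the interferon-stimulated response element (GAAA, any 2 bases, GAAA), for the ETS–IRF composite element to which PU.1 and IRF8 bind (GGAA, any 2 bases, GAAA) and for the E2F motifs TTTCCCGC and TTTGGCGC. The first 2 can overlap each other. Of all windows, 2.98% held the response element core, 2.3% the composite element, 0.895% TTTCCCGC and 0.417% TTTGGCGC. None of the 8 windows of these genes held any of them, which says only that these letters are not in this stretch.

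Levels were first compared among the 10 genes within a library, as counts per kilobase of transcript scaled to a common total (TPM). *Samhd1*, which hydrolyses deoxynucleotide triphosphates, was highest in every library, with 816 and 838 TPM in WT and 692 and 679 TPM in the libraries labelled TopBP1cKO. *Trex1*, the main exonuclease for cytosolic DNA, came next with 323 and 325 TPM in WT and 297 and 229.7 TPM in the libraries labelled TopBP1cKO. Both enzymes stood above every sensor in every library.

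Among the sensors, *Aim2* held 161 and 161 TPM in WT and *Zbp1* 146 and 165 TPM, and this pair of neighbours did not differ beyond the spread between the WT libraries. *Ifi204* had 73.2 and 72.0 TPM in WT. *Cgas* was the lowest sensor, at 26.9 and 27.8 TPM in WT and 29.3 and 40.2 TPM in the libraries labelled TopBP1cKO.

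Of the signalling arm, *Sting1* held 95.2 and 91.6 TPM in WT, above *Ifi204* in every library. *Tbk1*, with 48.5 and 50.6 TPM, and *Irf3*, with 44.3 and 49.8 TPM, overlapped in WT. *Rnaseh2a*, the catalytic subunit of RNase H2, was lowest of all in every library, at 13.7 and 18.8 TPM in WT and 21.9 and 20.6 TPM in the libraries labelled TopBP1cKO.

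**Figure D1:**
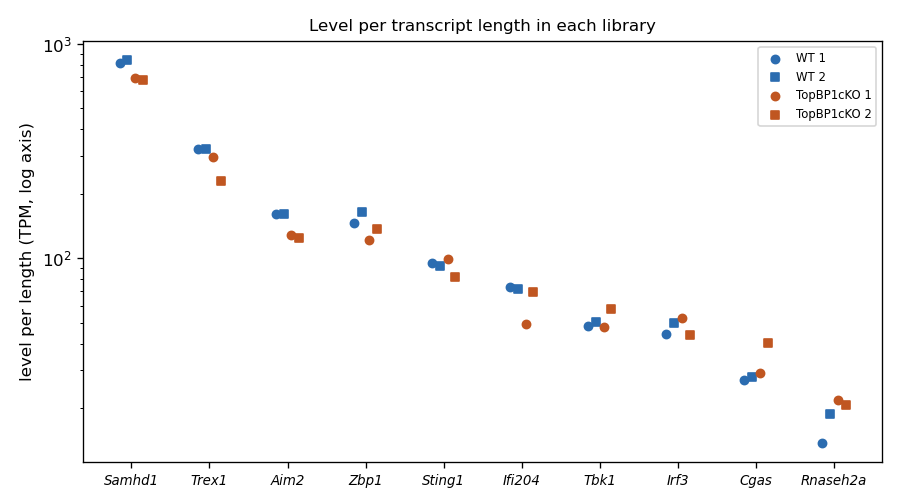
Level per transcript length (TPM, log axis) of the 10 genes in each of the 4 libraries, ordered by the WT mean. Circles are replicate 1 and squares replicate 2, WT in blue and TopBP1cKO in orange. *Samhd1* is highest and *Rnaseh2a* lowest in every library, and the points of *Aim2* and *Zbp1* overlap, as do those of *Tbk1* and *Irf3*.

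The groups were then compared gene by gene. None of the 10 genes differed at FDR < 0.05, where 0.105% of all genes tested did (edgeR quasi-likelihood test, Benjamini–Hochberg adjustment). Before adjustment, P was below 0.05 for 4 genes that were lower (*Aim2*, *Zbp1*, *Ifi204* and *Samhd1*) and for 0 that were higher, beside 3.77% lower and 6.95% higher among all genes tested. In 5 genes, these 4 and *Trex1*, both libraries labelled TopBP1cKO were below both WT libraries (20.8% of all genes), in *Cgas* both were above (22.8% of all genes), and in 4 the groups overlapped. The median log2 fold change of the 10 genes was −0.24, beside 0.01 for all genes tested. The values below are CPM with TMM effective library sizes.

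**Figure D2:**
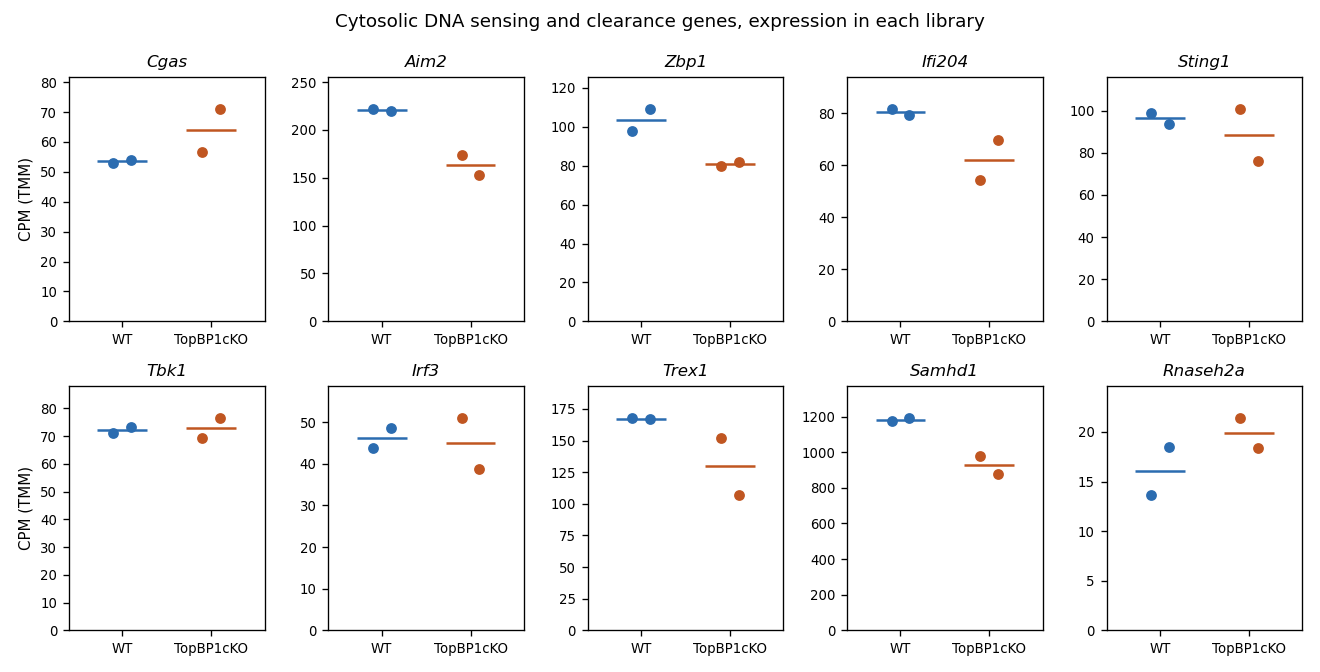
Expression of each gene in CPM (TMM), axes from 0, with 1 point per library (replicate 1 on the left) and a line at the mean of the 2 libraries of a group. Both TopBP1cKO points lie below both WT points for *Aim2*, *Zbp1*, *Ifi204*, *Trex1* and *Samhd1*, and above for *Cgas*.

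Among the sensors, *Aim2*, which binds double-stranded DNA and nucleates an inflammasome, had the smallest P value of the 10. It held 221.9 and 219.6 CPM in WT and 174 and 153 CPM in the libraries labelled TopBP1cKO. The WT libraries lay close together, and both of the other libraries were below them. The log2 fold change was −0.43 (SE 0.12, 95% interval −0.71 to −0.15, FDR 0.332), a fold of 0.742, and it did not pass the threshold over all genes tested.

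*Zbp1*, a sensor of left-handed nucleic acids upstream of RIPK3, held 98.1 and 109 CPM in WT and 79.9 and 82.0 CPM in the libraries labelled TopBP1cKO. The groups did not overlap. Its log2 fold change was −0.36 (SE 0.12, FDR 0.365).

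*Ifi204*, a PYHIN family sensor, held 81.7 and 79.3 CPM in WT and 54.4 and 69.9 CPM in the libraries labelled TopBP1cKO. Both were below WT, with TopBP1cKO replicate 1 the lower. This gave a log2 fold change of −0.37 (SE 0.15, FDR 0.444), or −0.21 with that library left out. Of the 31-base sequences of *Ifi204* transcripts, 34% also occur in other genes, 18.9% in *Ifi211*, so its count depends on how shared reads were placed.

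*Cgas* went the other way. It held 53.1 and 54.1 CPM in WT and 56.8 and 71.0 CPM in the libraries labelled TopBP1cKO. Both of these were above WT, and TopBP1cKO replicate 2 stood apart from the other 3 libraries. The log2 fold change was 0.25 (SE 0.15, 95% interval −0.09 to 0.59, FDR 0.586), and it came to 0.075 with that library left out.

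The signalling arm had no gene whose groups parted. *Sting1* held 98.8 and 93.9 CPM in WT and 101 and 76.0 CPM in the libraries labelled TopBP1cKO, which lay on either side of WT (log2 fold change −0.12, SE 0.16, 95% interval −0.48 to 0.24, FDR 0.815). *Tbk1* held 71.3 and 73.4 CPM in WT and 69.4 and 76.5 CPM in the libraries labelled TopBP1cKO, a log2 fold change of 0.012 (SE 0.12, 95% interval −0.27 to 0.30, FDR 0.981). *Irf3* held 43.7 and 48.6 CPM in WT and 51.0 and 38.8 CPM in the libraries labelled TopBP1cKO, a log2 fold change of −0.040 (SE 0.17, 95% interval −0.42 to 0.34, FDR 0.96). The intervals of *Sting1* and *Irf3* take in −0.35, the estimate of *Samhd1*. That of *Tbk1* does not, but it overlaps the interval of *Samhd1* (−0.67 to −0.03). No test compared the genes with each other.

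Of the enzymes, *Samhd1* held 1175 and 1192 CPM in WT and 980 and 877 CPM in the libraries labelled TopBP1cKO. The groups did not overlap, and the gap between the libraries labelled TopBP1cKO was wider than that between the WT libraries. The estimate in log2 was −0.35 (SE 0.14, 95% interval −0.67 to −0.03, FDR 0.434). *Samhd1* is the most abundant of the 10 genes, with 13568 to 18010 counts in a library.

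*Trex1* held 168 and 167 CPM in WT and 152 and 107 CPM in the libraries labelled TopBP1cKO. Both were below WT, but most of the difference lay in TopBP1cKO replicate 2. This gave a log2 fold change of −0.37 (SE 0.17, FDR 0.496), or −0.15 with that library left out. Of the 31-base sequences of *Trex1*, 97.6% also occur in transcripts of its neighbour *Atrip*, which itself had 88 to 138 counts in a library, against 1656 to 2522 for *Trex1*.

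*Rnaseh2a* held 13.6 and 18.5 CPM in WT and 21.4 and 18.4 CPM in the libraries labelled TopBP1cKO, with 193 to 326 counts in a library. WT replicate 1 was the lowest, and the other 3 libraries were close to each other. The log2 fold change was 0.31 (SE 0.20, FDR 0.629), and it came to 0.11 with WT replicate 1 left out and to 0.53 with WT replicate 2 left out.

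**Figure D3:**
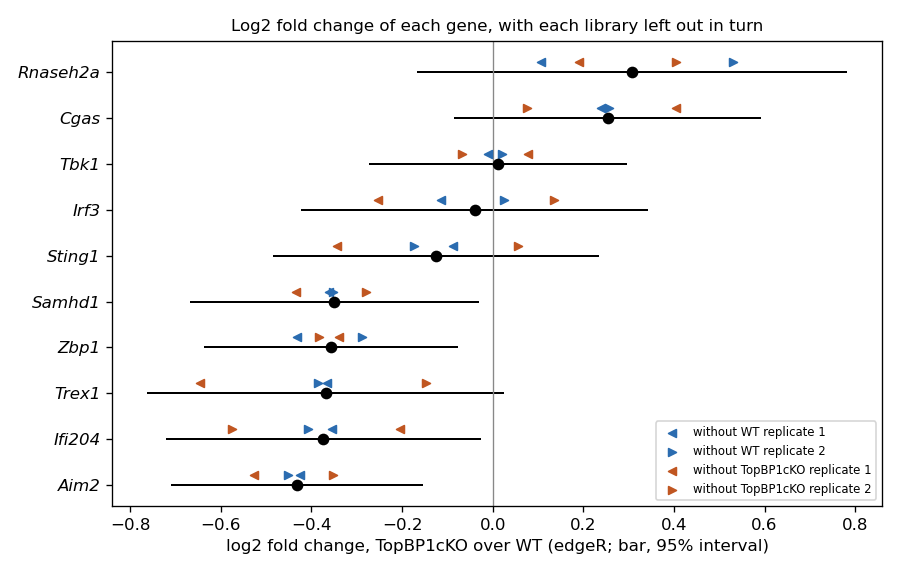
Log2 fold change of each gene, TopBP1cKO over WT, with its 95% interval (black) and the value with each library left out in turn (triangles, WT in blue and TopBP1cKO in orange). *Aim2*, *Zbp1*, *Ifi204*, *Trex1* and *Samhd1* stay below 0 in all 4 of those fits and *Cgas* and *Rnaseh2a* above, whereas *Tbk1*, *Irf3* and *Sting1* cross 0.

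The 2 libraries labelled TopBP1cKO did not hold these genes alike. Without TopBP1cKO replicate 1, 5 of the 10 genes passed FDR < 0.05, beside 20.5% of all genes tested in that fit: *Aim2* (−0.53), *Trex1* (−0.65), *Samhd1* (−0.43) and *Sting1* (−0.34) as lower and *Cgas* (0.40) as higher. Without TopBP1cKO replicate 2, only *Ifi204* (−0.58) passed, beside 1.74% of all genes tested. With either WT library left out, none passed, beside 0.0929% (replicate 1) and 0.00781% (replicate 2) of all genes tested. In each of these fits 1 group is a single library, which is assumed to vary as the other group does. TopBP1cKO replicate 2 is the library with 1279 *Topbp1* counts and 2424 CPM of cell cycle genes.

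The shares of single transcripts depend on how shared reads were placed, and no test was made of them. No transcript of the 10 genes reached 20 counts in both replicates of 1 group while being at 0 in both replicates of the other. *Tbk1* has 1 transcript in the files, and *Aim2* 32, of which 16 were counted. The most abundant *Samhd1* transcript held 57.9% and 51.5% of the gene's counts in WT and 55.6% and 63.0% in the libraries labelled TopBP1cKO, a spread within groups wider than the difference between their means. That of *Sting1* held 90.3% and 73.4% in WT and 80.8% and 73.1% in the libraries labelled TopBP1cKO. In *Cgas*, the less abundant of the 2 transcripts held 9.05% and 9.29% in WT and 5.78% and 4.92% in the libraries labelled TopBP1cKO. In *Rnaseh2a* the most abundant held 62.2% and 60.9% against 55.5% and 48.9%. The groups did not overlap in either case, but no share over all transcripts was computed to set beside this. Among whole genes, both libraries labelled TopBP1cKO were above both WT libraries in 22.8% and below in 20.8%. A minor *Sting1* transcript had 43 and 46 counts in WT and 13 and 5 in the libraries labelled TopBP1cKO. The *Irf3* transcript with the most counts over the 4 libraries had 240 and 238 counts in WT and 412 and 226 in the libraries labelled TopBP1cKO, a log2 fold change of 0.35, opposite in sign to the whole gene.

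The wider pathway was described with 80 listed genes of DNA and RNA sensing, STING and TBK1 partners, nucleases and effectors, of which 77 were in the files and 74 were tested. None passed FDR < 0.05, where 0.105% of all genes did. At an unadjusted P value below 0.05, 8 of the 74 were lower and 4 higher, beside 3.77% and 6.95% of all genes, and the median log2 fold change was 0.03. The 18 STING regulators had no gene at that P value, with 13 of 18 above 0 and a median of 0.13. The 11 effectors of AIM2 and ZBP1 had 1, *Il18*, a cytokine cleaved by caspase-1, at −0.66 (SE 0.27, FDR 0.446), whereas *Pycard* and *Casp1*, the partners of AIM2 in the inflammasome, stood at 0.079 (SE 0.14) and 0.055 (SE 0.14).

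**Figure D4:**
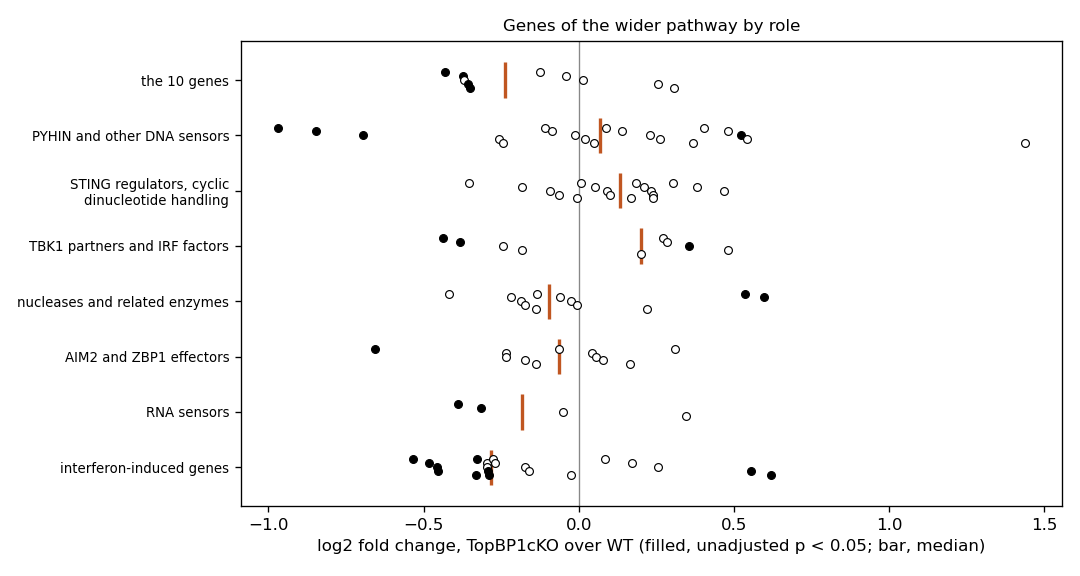
Log2 fold change, TopBP1cKO over WT, of the 10 genes and of the genes of each role in the wider lists, 1 point per gene tested. Filled points have an unadjusted P value below 0.05 and the orange bar is the median of the role, which runs from −0.28 in the interferon-induced genes to 0.20 in TBK1 partners and IRF factors. None of these genes passed FDR < 0.05.

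The PYHIN family, a cluster of interferon-inducible genes to which *Aim2* and *Ifi204* belong, had log2 fold changes from −0.97 to 0.54. Of its 13 members, 5 were lower at an unadjusted P value below 0.05 and 1 was higher, beside 3.77% and 6.95% of all genes. In 7 both libraries labelled TopBP1cKO were below both WT libraries and in 2 above, beside 20.8% and 22.8% of all genes. *Ifi214* had 214 and 240 counts in WT and 129 and 114 in the libraries labelled TopBP1cKO (log2 fold change −0.97, SE 0.20, FDR 0.307). *Ifi202b* had 2698 and 2251 counts in WT and 1453 and 1770 in the libraries labelled TopBP1cKO (−0.69, SE 0.16, FDR 0.307). *Ifi208* stood at −0.85 (SE 0.20, FDR 0.307).

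Of the 5 PYHIN genes with a value above 0, *Mndal* had the smallest P value, with 1133 and 1567 counts in WT and 2229 and 1822 in the libraries labelled TopBP1cKO (log2 fold change 0.52, SE 0.17, FDR 0.352). PYHIN genes resemble each other. The share of their 31-base sequences found in other genes was 1.2% for *Ifi202b* and 4.89% for *Aim2*, but 20.5% for *Ifi214*, 28.7% for *Mndal*, 34% for *Ifi208* and 78.9% for *Ifi211*, so single members of the family other than *Aim2* and *Ifi202b* are uncertain.

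**Figure D5:**
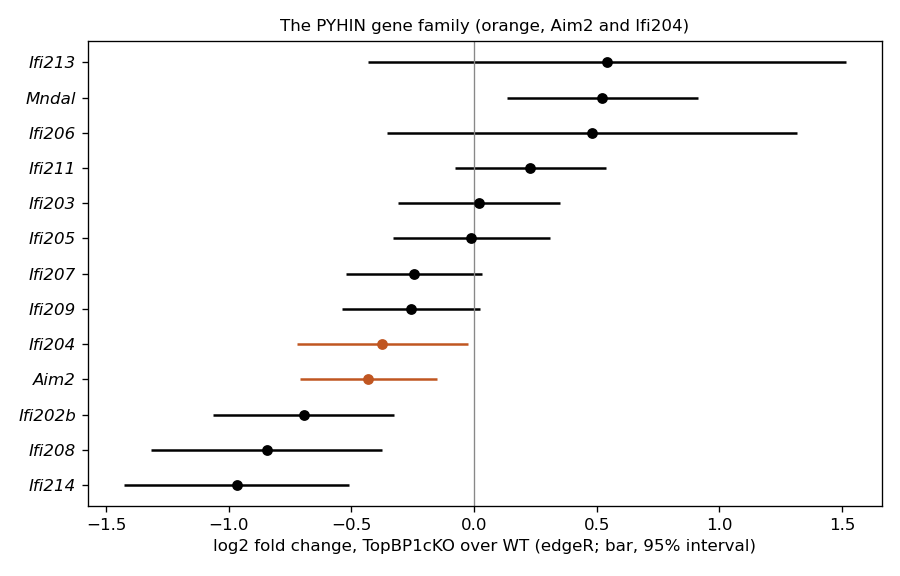
Log2 fold change, TopBP1cKO over WT, of the 13 PYHIN genes with 95% intervals. *Ifi214*, *Ifi208*, *Ifi202b*, *Aim2* and *Ifi204* have intervals below 0 and *Mndal* one above 0, none at FDR < 0.05.

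Of the 12 nucleases and related enzymes tested in the wider list, 9 had a log2 fold change below 0 and 3 above, with a median of −0.098. The other 2 subunits of RNase H2 were among those above 0. For these 2, both libraries labelled TopBP1cKO were above both WT libraries, as in 22.8% of all genes. *Rnaseh2b* had 219 and 239 counts in WT and 281 and 416 in the libraries labelled TopBP1cKO (log2 fold change 0.54, SE 0.21, FDR 0.44). *Rnaseh2c* had 92 and 108 counts against 161 and 156 (0.60, SE 0.22, FDR 0.392). With *Rnaseh2a*, whose groups overlapped, all 3 subunits had a log2 fold change above 0, as did 6345 of the 12393 genes tested. *Dnase1l3* and *Pld4*, nucleases of dendritic cells, stood at −0.19 (SE 0.14) and −0.17 (SE 0.15).

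Around TBK1, *Tank*, its scaffold, was higher in both libraries labelled TopBP1cKO (log2 fold change 0.35, SE 0.13, FDR 0.403). *Irf7* and *Irf1*, interferon-inducible transcription factors, were lower in both, at −0.44 (SE 0.14, FDR 0.36) and −0.38 (SE 0.13, FDR 0.38). Of the 4 genes listed as RNA sensors, *Ifih1* and *Dhx58*, which encode MDA5 and LGP2, stood at −0.39 (SE 0.13, FDR 0.353) and −0.31 (SE 0.12, FDR 0.423). *Rigi* went the other way at 0.35 (SE 0.21, FDR 0.608) and *Mavs* stood at −0.051 (SE 0.16, FDR 0.941). The groups overlapped for both *Rigi* and *Mavs*. Among the DNA repair proteins that also bind cytosolic DNA, *Xrcc6* stood at 0.37 (SE 0.16, FDR 0.467).

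Next came 6 interferon genes and 20 interferon-induced genes, whose link to this pathway in these cells was not tested. *Ifnb1*, *Ifna1*, *Ifna2*, *Ifna4*, *Ifnl2* and *Ifnl3* had 0 counts in all 4 libraries, which allows up to 3 counts in a library by counting error alone. Of the 20 induced genes none passed FDR < 0.05. At an unadjusted P value below 0.05, 8 were lower and 2 higher, beside 3.77% and 6.95% of all genes. In 10 both libraries labelled TopBP1cKO were below both WT libraries and in 2 above, beside 20.8% and 22.8% of all genes. The median log2 fold change was −0.28.

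*Stat2*, a subunit of the factor that carries the interferon signal to DNA, had 6172 and 7032 counts in WT and 4974 and 4574 in the libraries labelled TopBP1cKO. The groups did not overlap (log2 fold change −0.53, SE 0.12, FDR 0.307). *Oas3* stood at −0.46 (SE 0.12, FDR 0.308), *Ifit2* at −0.45 (SE 0.16, FDR 0.381), *Mx2* at −0.48 (SE 0.17, FDR 0.391) and *Mx1* at −0.33 (SE 0.13, FDR 0.427). These encode antiviral effectors. The chemokine *Ccl5* (0.62, SE 0.19, FDR 0.347) and *Oas2* (0.55, SE 0.23, FDR 0.461) were higher in both libraries labelled TopBP1cKO, and *Ifit3*, *Ifit1* and *Oas1a*, at 0.26, 0.17 and 0.084, overlapped between groups.

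Genes of other cells that also express this pathway were read beside these values. The macrophage and monocyte markers summed to 610 and 584 CPM in WT and 694 and 533 CPM in the libraries labelled TopBP1cKO, with 1 of 10 tested lower and 1 higher at an unadjusted P value below 0.05 (3.77% and 6.95% of all genes) and log2 fold changes from −2.00 to 0.59, so that the sum does not stand for each marker. The pDC markers, of the cells best known for interferon, summed to 173 and 181 CPM against 167 and 167 CPM. Of the 7 pDC markers tested, 1 was lower and 2 were higher at that P value, with log2 fold changes from −0.33 to 1.14. The T and NK cell markers summed to 12.7 and 12.7 CPM in WT and 21.5 and 16.3 CPM in the libraries labelled TopBP1cKO. Of the 5 tested, 0 were lower and 2 were higher at that P value (3.77% and 6.95% of all genes). The median of the EP and cDC1 markers was −0.17 in log2 fold change, and 7 of the 12 were below WT in both libraries labelled TopBP1cKO, beside 20.8% of all genes. *Kit* and *Cadm1*, the 2 with an unadjusted P value below 0.05, stood at −0.30 (SE 0.12, FDR 0.436) and −0.51 (SE 0.16, FDR 0.347). The 2 markers with a value above 0 were *Itgax* (0.12, SE 0.12) and *Tlr3* (0.15, SE 0.16). *Itgax* was above WT in both libraries labelled TopBP1cKO, as were 22.8% of all genes, and *Tlr3* overlapped. *Irf8*, *Batf3* and *Id2* overlapped as well.

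The genes most like *Aim2* across the 4 libraries were taken as those with the smallest root mean square difference in centred log2 CPM, among genes averaging 50 counts or more. They were *Gtpbp8* (0.011), *Scaper* (0.014) and *Ube2l6* (0.015), the last of which encodes a conjugating enzyme of ISG15. Their log2 fold changes were −0.43, −0.43 and −0.42. Over 4 libraries such a likeness is a description of these libraries only.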

How the data were processed

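RNA-seq libraries of CD24+ EPs were sequenced by the study’s provider. Per the labels, fastp, STAR, Salmon and GATK were used with GRCm39, with no versions or roles. The authors deposited whole-number counts on 137259 transcript rows per library, which may be rounded Salmon estimates, and the use of molecular identifiers and the handling of shared reads are not given in the sources used here. Rows without an accession (2558, at most 4.86% of counts) kept their symbol. The labels name RNAiso Plus and the paper an RNeasy kit.

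Counts were summed per symbol, filtered (filterByExpr), normalized by TMM and compared by the edgeR 4.0.16 quasi-likelihood test with adjustment over all 12393 genes, at a biological coefficient of variation estimated as 15.2%. The software was R 4.3.3, limma 3.58.1, DESeq2 1.42.0 and Python 3.11.15. Only the quasi-likelihood test was tried on simulated data, not the alternatives. No pair of libraries was a duplicate (chi-square per degree of freedom at least 11.2). Counting limits cover counting error only. With 2 libraries per group an exact permutation test cannot go below 0.333.

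TPM used the median length of a gene's GENCODE M21 transcripts. Protein-coding ones matched to a RefSeq transcript of the files came first, then any protein-coding ones, then all. A length was found for 84.6% of genes with a count. Promoters came from RefSeq (GRCm38.p6). The genes and lists were chosen with earlier results of these data known. Named were the 10 genes, *Topbp1*, and, of the pathway and interferon lists, genes at FDR < 0.05 (0) and the 5 with the smallest P value per list and direction. Other lists are given by counts, and by single genes only for EP and cDC1 markers. *Il18*, *Pycard*, *Casp1*, *Irf1*, *Dhx58*, *Rigi*, *Mavs*, *Dnase1l3*, *Pld4*, *Ifi211* and *Atrip* were added after their values were seen. Other normalizations, filters, tests, a replicate block, single transcripts and each library left out were tried, and the longest transcript as length was added after seeing the data.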

Additional observations from a re-analysis of the deposited data

How the results depend on the processing

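For the 10 genes, the count at FDR < 0.05 was 0 under every alternative that kept all libraries and ran from 0 to 5 with a library left out. *Aim2*, *Zbp1*, *Ifi204*, *Trex1*, *Samhd1*, *Cgas* and *Rnaseh2a* kept their direction under all 13 alternatives. With a library left out, *Tbk1* ran from −0.068 (without TopBP1cKO replicate 2) to 0.078, with −0.010 without WT replicate 1, *Irf3* from −0.25 to 0.14 (without TopBP1cKO replicate 2), with 0.025 without WT replicate 2, and *Sting1* from −0.34 to 0.056 (without TopBP1cKO replicate 2), so that all 3 changed sign. The main transcript of *Irf3* was at 0.35. *Topbp1* ran from −0.61 to 0.11 with a library left out. In the wider pathway 1 gene (*Ifi202b*) passed in the DESeq2 Wald test and 3 in the likelihood ratio test of edgeR, and from 0 to 21 with a library left out. Among the interferon-induced genes, 1 (*Stat2*) passed in each of those tests, and from 0 to 6 with a library left out. Of all genes, 137 passed in the DESeq2 Wald test, 234 in the likelihood ratio test, 0 with each transcript as its own feature (1570 genes at an unadjusted P value below 0.05) and from 1 to 2625 with a library left out, against 13. The highest count of each range came without TopBP1cKO replicate 1, where 1 library is left to stand for the group. The cause was not tested. Nothing in the sources used here says that replicate numbers pair the libraries. The differences between replicates had a correlation of −0.028 across the groups, which cannot exclude a shared batch. With replicate numbers as a block, 0 of the 10 genes, 4 pathway genes and 504 of all genes passed. With the longest transcript as length, *Aim2* stood above *Zbp1* in every library.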
